A study of Mus musculus with 2 samples.

Results

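Messenger RNA of the insulin-like growth factor (IGF) family was examined in RNA sequencing of mouse cavernous endothelial cells (MCECs) cultured under high glucose (HG). The family was taken as the ligand genes Igf1 and Igf2, the receptor genes Igf1r and Igf2r, and Igfbp2 to Igfbp7, which encode the IGF-binding proteins. These 10 of the 23183 gene symbols were picked by name and not by a threshold on their values, and all 10 were listed in both libraries. They occupy 17 of the 33299 transcript rows of each file. The rows of a symbol were summed after conversion of the deposited values from log2(normalized FPKM + 1) to normalized FPKM (fragments per kilobase of transcript, scaled to library size).

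IGF-I and IGF-II are small secreted hormones that promote growth and survival of many cell types, including those of the vessel wall. They act through the IGF-I receptor, a tyrosine kinase that feeds the PI3K/Akt and MAP kinase cascades, while the IGF-II receptor takes up IGF-II for degradation and also carries mannose 6-phosphate tagged enzymes to lysosomes. Outside the cell most IGF is held by the binding proteins, which extend its life, keep it from the receptor, or release it once they are cut by proteases. The binding proteins attach to matrix and cell surfaces as well, and endothelial, mural and connective tissue cells each secrete a characteristic mixture of them.

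The 2 libraries were HG+HBS, from MCECs given HEPES-buffered saline as vehicle, and HG+PC-NVs, from MCECs given nanovesicles made by extruding cultured mouse cavernous pericytes. Both groups shared the high glucose medium (30 mM) and the primary culture, grown from C57BL/6J mouse penis and used at passages 2 to 4. The mice of the study were males 8 weeks old. PC-NVs were given at 1 µg/mL. The labels give 5 days of glucose, while by the study's methods RNA was taken after 72 hours of glucose and 24 hours of vesicles. There was 1 library per condition and so no replicate check: every fold below compares these 2 libraries and carries no p-value. Intervals are 95% Wilson intervals for counting error only.

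Below, values with HBS and with PC-NVs are those of HG+HBS and HG+PC-NVs. The libraries held roughly 13300000 fragments (HG+HBS) and 11600000 fragments (HG+PC-NVs), as estimated from the step between low FPKM values. The estimate assumes that normalization left each library on its own FPKM scale, which was not checked. Several defining endothelial markers were low in both, while others were expressed. Pecam1, which encodes CD31, was at 1.05 FPKM with HBS and 0.938 FPKM with PC-NVs, and Vwf, for von Willebrand factor, was at 0.158 and 0.128 FPKM. Of the 18 endothelial markers examined, 12 stayed under 1 FPKM in both libraries, and the list summed to 66.5 FPKM with HBS and 51.5 FPKM with PC-NVs. The highest were Eng (endoglin) at 29.0 and 21.4 FPKM, Esam at 17.4 and 11.7 FPKM and Egfl7 at 9.48 and 8.57 FPKM, and Cdh5 (VE-cadherin) was at 5.05 and 5.73 FPKM. The 14 fibroblast markers summed to 3673 and 3580 FPKM, with 1 of them under 1 FPKM in both, and the 14 mural markers to 152 and 127 FPKM. The 14 myeloid markers summed to 477 and 720 FPKM, of which Cd14 alone made up 36.6 and 252 FPKM. None of the 14 was under 1 FPKM in both libraries. The 8 Schwann cell markers summed to 3.05 and 3.19 FPKM, and the 7 epithelial markers to 10.01 and 2.36 FPKM. The low Pecam1 and Vwf beside high fibroblast markers go against the endothelial label, while Eng, Esam, Egfl7 and Cdh5 were detected, and the levels below are those of the whole culture. In such bulk RNA, fewer cells of a type and less RNA per cell cannot be told apart.

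**Figure D1:**
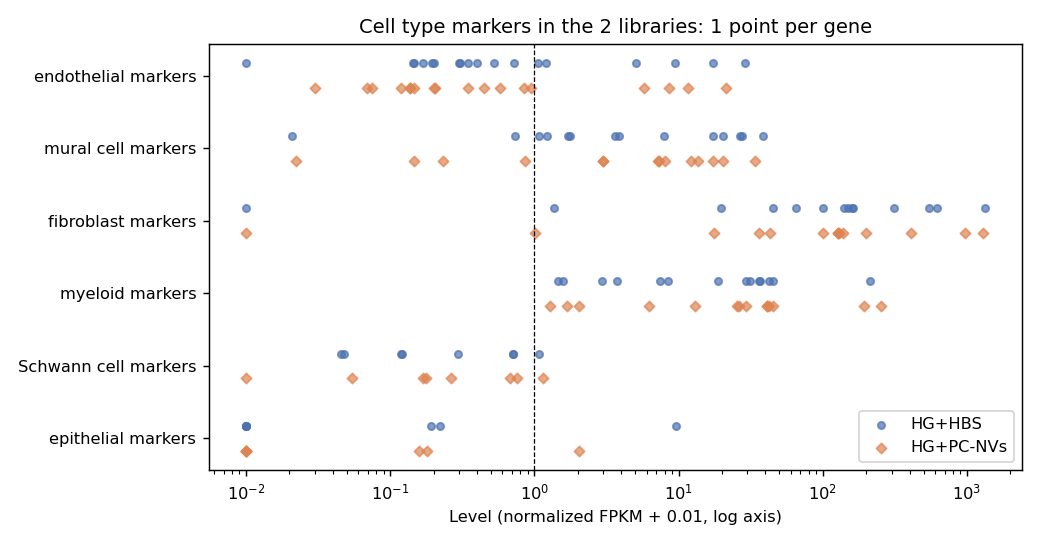
Levels of cell type markers in HG+HBS (circles) and HG+PC-NVs (diamonds), as normalized FPKM + 0.01 on a log axis, with 1 point per gene and 1 library per condition. Most endothelial markers lie left of the dashed line at 1 FPKM, while the fibroblast markers reach 1344 FPKM in HG+HBS.

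The promoters shown here belong to Igfbp5 and Igfbp3, the genes that exchanged the highest place in the family between the libraries. Each sequence is the 250 bases before the RefSeq start of the gene on GRCm38.p6, written 5′ to 3′ on the strand of the gene. Igfbp5 is read from the reverse strand at chr1:72874866-72875115, and its last 19 bases lie in an exon of the GENCODE model. Igfbp3 is read from the reverse strand at chr11:7213924-7214173, with 0 bases in annotated exons. Capitals mark every match to the motifs named in the next paragraph.
Igfbp5: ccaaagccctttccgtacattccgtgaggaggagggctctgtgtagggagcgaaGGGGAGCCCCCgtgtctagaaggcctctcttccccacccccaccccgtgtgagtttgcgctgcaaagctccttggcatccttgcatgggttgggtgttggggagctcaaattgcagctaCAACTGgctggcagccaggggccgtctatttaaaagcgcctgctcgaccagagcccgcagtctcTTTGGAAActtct
Igfbp3: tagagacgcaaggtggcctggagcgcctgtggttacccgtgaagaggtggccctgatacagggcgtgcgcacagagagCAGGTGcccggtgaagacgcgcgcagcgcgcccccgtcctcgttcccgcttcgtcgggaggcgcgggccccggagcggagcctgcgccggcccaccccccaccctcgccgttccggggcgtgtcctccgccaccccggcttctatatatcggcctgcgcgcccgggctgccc

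The motifs were searched on both strands of these windows and of all 32851 RefSeq promoter windows of that length. The letters TATAAA of the TATA box occurred in 12.4% of all windows. CCAAT occurred in 33.8%, the GC box letters GGGCGG in 32.7%, and the E-box letters CANNTG in 66.2%. TGANTCA (AP-1) occurred in 6.75%, TTNNGNAA (C/EBP) in 36.8%, GTAAACA (FoxO) in 3.17%, and the NF-kB consensus in 7.25%. The Igfbp5 window held an E-box match 77 bases before the start, a C/EBP match 13 bases before it, and overlapping NF-kB matches of which the farthest begins 196 bases before it. The Igfbp3 window held an E-box match 172 bases before the start and no other match. Its GC content was 73.2%, against 58.8% for Igfbp5 and a median of 52.4% over all windows. These matches describe letters in the windows, and binding of factors was not measured.

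In HG+HBS the highest member was Igfbp3 (337 FPKM), followed by Igfbp5 (204 FPKM), Igfbp4 (177 FPKM), Igf2r (136 FPKM), Igfbp7 (122 FPKM) and Igfbp6 (102 FPKM). Igf1r stood lower at 22.2 FPKM, and Igf1 (4.32 FPKM), Igf2 (1.15 FPKM) and Igfbp2 (0.603 FPKM) were lowest. In HG+PC-NVs Igfbp5 took the highest place with 380.4 FPKM, Igfbp3 followed with 310 FPKM, and Igfbp7 passed Igf2r. The remaining 6 members kept their places. The order within a library does not depend on scaling between libraries, but there are no replicates to show which neighbours in it differ beyond the spread of cultures.

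**Figure D2:**
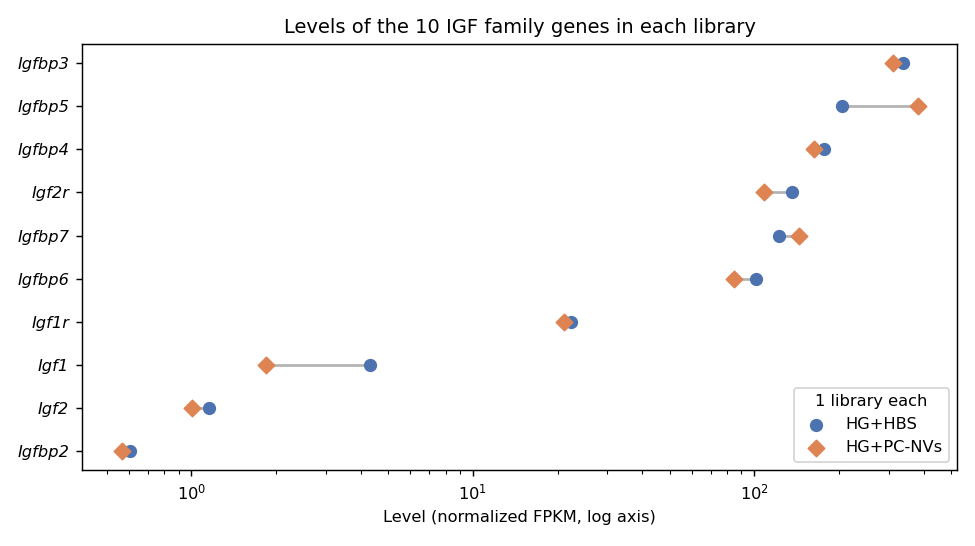
Levels of the 10 IGF family genes in HG+HBS (circles) and HG+PC-NVs (diamonds), in normalized FPKM on a log axis, with 1 library per condition and a grey line joining the values of a gene. Igfbp5 has the longest line among the highly expressed genes and Igf1 the longest among the weakly expressed ones.

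The comparison of HG+PC-NVs with HG+HBS asks how MCECs under high glucose differ with and without the vesicles. The log2 ratio, HG+PC-NVs over HG+HBS on the log2(FPKM + 1) scale, was below 0 for 8 members and above 0 for 2. For 8 of the 10 it lay within 0.35 of 0. Over all 11785 genes tested, 6078 were below 0. Most of those genes also lay within about 0.35 of 0. Col3a1 (-0.35) stood at the 10.6th percentile of all genes tested and Gsk3b (0.35) at the 88.9th. Members were counted as past the fold at a 2-fold difference in either direction, among genes with a mean log2(FPKM + 1) of at least 1 over both libraries. This level was met by 9 members, all but Igfbp2, and 0 of the 9 were past the fold, against 3.18% of all 11785 genes tested (2.38% higher and 0.798% lower). At a 1.5-fold difference 2 of the 9 were counted, Igfbp5 as higher and Igf1 as lower, against 8.9% of all genes in either direction (5.33% higher and 3.57% lower). The median log2 ratio was -0.11 over the 9 members and -0.01 over all genes tested.

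**Figure D3:**
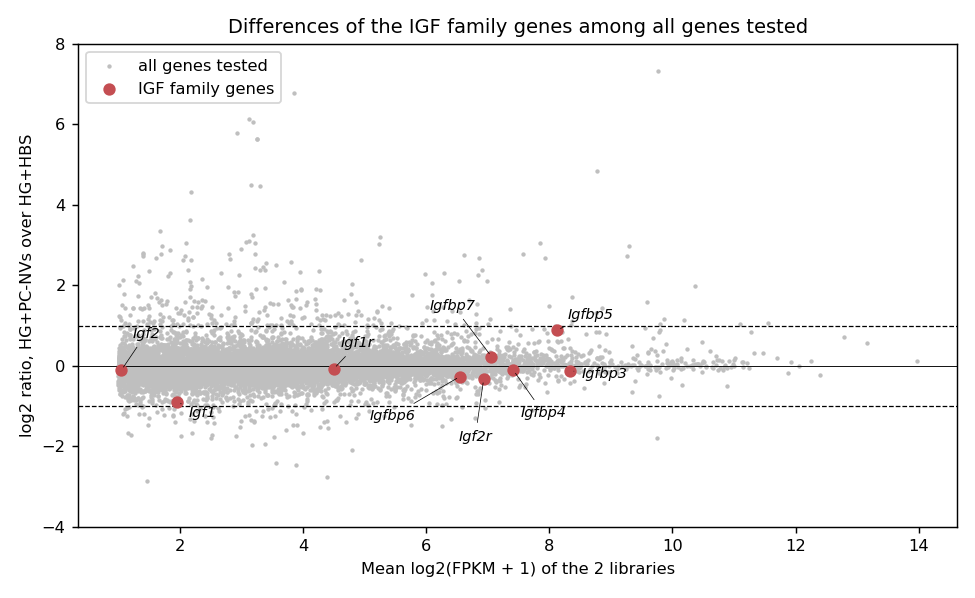
The log2 ratio of HG+PC-NVs over HG+HBS (vertical axis) against the mean log2(FPKM + 1) of both libraries (horizontal axis) for the 11785 genes tested (grey) and the 9 IGF family genes among them (red), with dashed lines at a 2-fold difference. The 9 genes lie between the dashed lines, Igfbp5 (0.89) near the upper and Igf1 (-0.90) near the lower, and 3 genes outside the range from -4 to 8 are not drawn.

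Igfbp5 encodes the most conserved of the IGF-binding proteins, which binds matrix and is secreted by connective tissue and muscle cells. It lies at chr1:72857932-72874884 of GRCm38 on the reverse strand. Its single row held 204 FPKM with HBS and 380.4 FPKM with PC-NVs. This was a 1.86-fold higher level with PC-NVs (95% Wilson interval 1.83 to 1.90), from about 16363 and 26606 fragments. The log2 ratio of 0.89 was at the 97.2th percentile of all genes tested. Igfbp5 ranked 344 among all symbols by level with HBS and 211 with PC-NVs.

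Igfbp2, which encodes a binding protein made in many fetal and cancer cells, is the neighbour of Igfbp5. The genes lie tail to tail with 5458 bases between them, Igfbp2 at chr1:72824503-72852474 on the forward strand. Igfbp2 was at 0.603 FPKM with HBS and 0.565 FPKM with PC-NVs, or about 7.97 and 6.52 fragments, too few to show any but a large difference (fold 0.937, interval 0.353 to 2.48). Igfbp5 was thus 339 times as high as its neighbour with HBS and 673 times as high with PC-NVs.

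Igfbp3 encodes the main carrier of IGF in blood, which holds it in a complex with the acid-labile subunit. The gene lies at chr11:7206086-7213923 on the reverse strand. It was at 337 FPKM with HBS and 310 FPKM with PC-NVs, a fold of 0.918 (interval 0.892 to 0.944) and a log2 ratio of -0.12. Its neighbour Igfbp1, the insulin-regulated binding protein of liver, lies 3540 bases away tail to tail and was listed at 0 in both libraries, which allows up to 0.148 FPKM with HBS and 0.169 FPKM with PC-NVs at 3 fragments. Igfals, which encodes the acid-labile subunit, was also listed at 0 in both libraries, with limits of 0.0857 and 0.0981 FPKM.

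Igfbp4 encodes a binding protein that restrains IGF action until it is cut by pappalysin, and lies at chr11:99041244-99054392 on the forward strand. It was at 177 FPKM with HBS and 163 FPKM with PC-NVs, a fold of 0.925 (interval 0.897 to 0.954). Igfbp6, whose product prefers IGF-II, lies at chr15:102144362-102149511 on the forward strand. It was at 102 FPKM with HBS and 84.3 FPKM with PC-NVs, a fold of 0.830 (interval 0.768 to 0.897). Both genes were lower with PC-NVs by more than counting error, and whether by more than cultures vary could not be tested.

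Igfbp7 encodes a distant relative that binds IGF weakly and is abundant in the walls of vessels. It lies at chr5:77349240-77408041 on the reverse strand. Its summed level was 122 FPKM with HBS and 144 FPKM with PC-NVs, a fold of 1.17 (interval 1.10 to 1.25), so it was the only binding protein gene besides Igfbp5 that was higher with PC-NVs. The 2 rows of the gene went different ways, from 121 to 143 FPKM in the main row and from 1.26 to 0.710 FPKM in the minor one.

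As a pool, Igfbp2 to Igfbp7 summed to 943 FPKM with HBS and 1082 FPKM with PC-NVs, a fold of 1.15 (interval 1.13 to 1.16). The summed FPKM of all genes was also higher with PC-NVs, at 521666 with HBS and 580717 with PC-NVs. The pool was 0.181% of that total with HBS and 0.186% with PC-NVs. With quantile normalization between the libraries the fold of the pool was 1.02. Without Igfbp5 the pool went from 739 to 702 FPKM, a fold of 0.9498. Igfbp5 made up 21.7% of it with HBS and 35.2% with PC-NVs, while Igfbp3 made up 35.8% and 28.6%. Igfbp4 went from 18.7% to 15.1% and Igfbp6 from 10.8% to 7.79%, Igfbp7 held 12.98% and 13.27%, and Igfbp2 stayed under 1%. The ratio of Igfbp5 to Igfbp3 was 0.605 with HBS and 1.23 with PC-NVs.

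**Figure D4:**
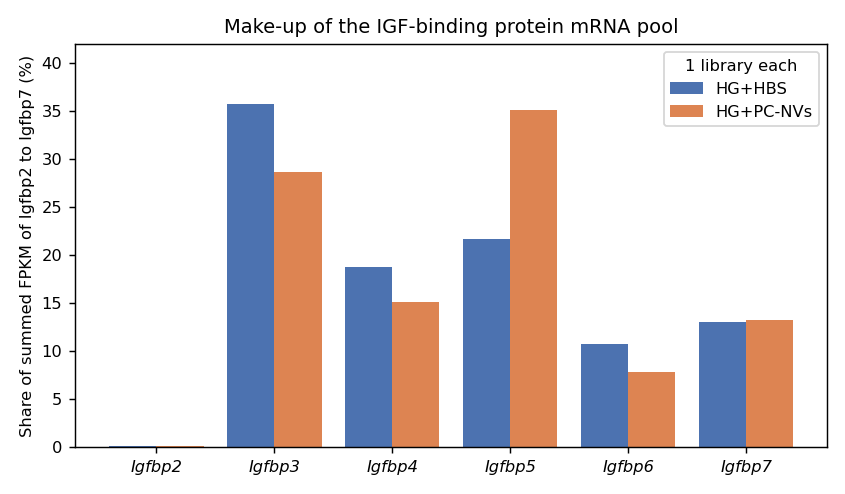
Share of each gene in the summed normalized FPKM of Igfbp2 to Igfbp7, in percent, in HG+HBS (blue) and HG+PC-NVs (orange), with 1 library per condition. Igfbp5 goes from 21.7% to 35.2%, and Igfbp3 from 35.8% to 28.6%.

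The ligand genes were weakly expressed. Igf1, at chr10:87858265-87937042 on the forward strand, was at 4.32 FPKM with HBS and 1.84 FPKM with PC-NVs. Its level was 2.34-fold lower with PC-NVs on the FPKM scale (interval 1.28 to 4.28 with the shortest of its 5 RefSeq-linked transcripts, or about 37.5 and 13.98 fragments). On the log2(FPKM + 1) scale, which understates the change of low genes, the log2 ratio was -0.90, at the 1.10th percentile of all genes tested. With a pseudocount of 0.1 it was -1.19 and past the 2-fold difference, and with the highest row of Igf1 alone it was -0.57 and short of the 1.5-fold one. By the longest transcript the fragments number about 406 and 151, so the interval depends on which transcripts were read.

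The 5 rows of Igf1 were not alike. The highest went from 2.57 to 1.40 FPKM, the next from 1.25 to 0.318 FPKM, and a further row from 0.505 FPKM to a value listed at 0. The other 2 rows were near 0 with HBS and at 0.102 and 0.0198 FPKM with PC-NVs. The files do not pair rows with transcripts, so these rows cannot be named as isoforms.

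Igf2, at chr7:142650766-142666816 on the reverse strand, was at 1.15 FPKM with HBS and 1.00 FPKM with PC-NVs, with about 9.97 and 7.57 fragments by its shortest transcript. A difference was not detectable at this depth (fold 0.870, interval 0.354 to 2.14). Igf2os, an antisense gene that overlaps Igf2 by 7123 bases, was at 0.0299 and 0.0172 FPKM. Together the ligand genes summed to 5.47 FPKM with HBS and 2.84 FPKM with PC-NVs. The summed binding protein mRNA was 172 times that of the ligands with HBS and 380.5 times with PC-NVs. These are ratios of mRNA, and protein was not measured in these libraries.

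Both receptor genes were expressed. Igf1r, at chr7:67952827-68233668 on the forward strand, encodes the signalling receptor. It was at 22.2 FPKM with HBS and 21.1 FPKM with PC-NVs, a fold of 0.947 (interval 0.901 to 0.996). Insr, which encodes the closely related insulin receptor, was at 6.25 and 6.59 FPKM. Igf1r was thus 3.55 times as high as Insr with HBS and 3.19 times with PC-NVs.

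Igf2r, at chr17:12682406-12769664 on the reverse strand, encodes the IGF-II and mannose 6-phosphate receptor. It was at 136 FPKM with HBS and 108 FPKM with PC-NVs, a fold of 0.792 (interval 0.773 to 0.811) from about 16156 and 11168 fragments. Its imprinted antisense RNA Airn, which overlaps it by 28353 bases, was at 17.7 and 11.3 FPKM. The library kit keeps strand, but no source used here says whether the counting did, so reads of the overlap cannot be assigned with certainty. Igf2r was 6.13 times as high as Igf1r with HBS and 5.13 times with PC-NVs. M6pr, the smaller mannose 6-phosphate receptor with no IGF-binding site, differed the other way, with 65.8 FPKM with HBS and 77.0 FPKM with PC-NVs.

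The genes around the family were read from 8 lists chosen by function, with earlier results of these data known. Counts over the lists are therefore descriptive. The lists hold 132 further genes found in the files, 113 of them at the level required. Of these 113 genes 8 were past the 2-fold difference, against 3.18% of all genes tested. They were Mmp3, Mmp1a, Mmp9, Sod2 and Dcn as higher and Plat, Ctgf and Dlk1 as lower. The counts of the single lists below stand against 2.38% of all genes tested as higher and 0.798% as lower.

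Among 20 genes of proteases that cut IGF-binding proteins and of their inhibitors, 15 were tested, 3 were past the fold as higher and 1 as lower, and the median log2 ratio was 0.03. Mmp3 (stromelysin) was at 2076 FPKM with HBS and 4364 FPKM with PC-NVs, a log2 ratio of 1.07. The collagenase gene Mmp1a (15.0 and 36.6 FPKM) had a log2 ratio of 1.24, and the gelatinase gene Mmp9 (3.10 and 13.5 FPKM) one of 1.83. Plat, which encodes tissue plasminogen activator, was lower, at 32.8 FPKM with HBS and 12.04 FPKM with PC-NVs. Pappa, for the pappalysin that cuts the product of Igfbp4, was at 6.14 and 8.07 FPKM, a log2 ratio of 0.35. Of the stanniocalcin genes, whose products inhibit it, Stc2 was at 14.8 FPKM in each library and Stc1 at 4.38 and 6.89 FPKM (fold 1.57, interval 1.34 to 1.86). Ctsd (lysosomal cathepsin D) at 1494.5 and 1348.4 FPKM and Mmp2 at 450 and 435 FPKM were the next highest of the list after Mmp3.

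Of 13 genes found from the list of binding protein relatives, which also holds the partner gene Igfals, 9 were tested. Their median log2 ratio was -0.38, with 8 of the 9 below 0, against 6078 of all 11785 genes tested. Past the fold were 0 as higher and 1 as lower. The lower one was Ctgf, the matricellular growth factor also called CCN2, at 13.8 FPKM with HBS and 4.75 FPKM with PC-NVs. Nov, its relative CCN3, was the highest of the list at 112 and 103 FPKM, and Cyr61 (CCN1) was at 32.5 and 24.8 FPKM. Esm1, which encodes endocan, was at 14.3 and 15.3 FPKM. Igfbpl1 was listed at 0 in both libraries.

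Of 40 genes of insulin and IGF receptor signalling, 39 were found, 37 were tested, and 0 were past the fold in either direction, with a median log2 ratio of -0.04. The highest were Nedd4, a ubiquitin ligase that targets the receptor (489 and 455 FPKM), Akt1 (230.4 and 197 FPKM) and the adaptor gene Shc1 (176 and 142 FPKM). The largest differences of the list lay at a substrate and at an inhibitor of the receptor. Irs1, which encodes the insulin receptor substrate, was at 10.9 FPKM with HBS and 5.55 FPKM with PC-NVs, a log2 ratio of -0.86. Socs3, the suppressor of cytokine signalling, was at 41.1 and 70.9 FPKM, a log2 ratio of 0.77. Irs2 was at 8.11 and 7.48 FPKM.

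Of 20 target genes of the FoxO factors, which Akt holds out of the nucleus, 19 were tested, 1 was past the fold as higher and 0 as lower, and the median log2 ratio was -0.01. The higher one was Sod2, for mitochondrial superoxide dismutase, at 11.4 FPKM with HBS and 75.9 FPKM with PC-NVs. Txnip, a glucose-responsive inhibitor of thioredoxin, was at 67.4 and 38.4 FPKM, Cat (catalase) at 51.8 and 50.2 FPKM, and Cited2 at 39.1 and 42.9 FPKM.

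**Figure D5:**
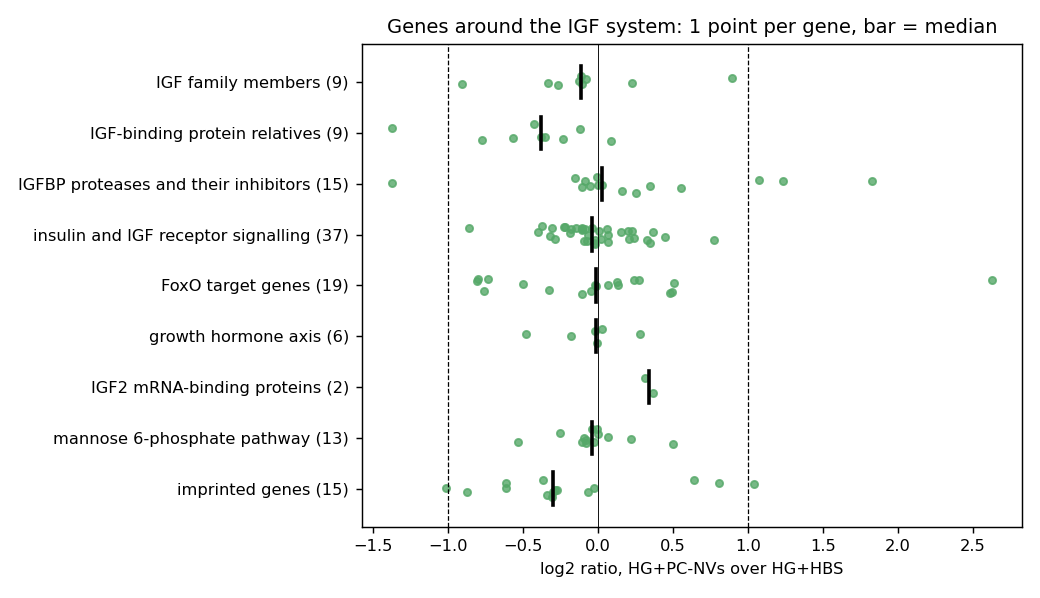
The log2 ratio of HG+PC-NVs over HG+HBS for the genes tested of the IGF family and of 8 lists around it, with 1 point per gene, a bar at the median and the number of genes in brackets. The dashed lines mark a 2-fold difference, which Mmp9 (1.83) and Sod2 (2.63) pass to the right and Plat (-1.37) and Ctgf (-1.37) to the left.

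Markers of other cell types differed between the libraries beside these values. Their counts past the 2-fold difference stand against 2.38% of all genes tested as higher and 0.798% as lower. Of the 14 fibroblast markers 13 were tested, with 1 past the fold as higher (Dcn, 623 to 1283 FPKM) and 0 as lower, and their median log2 ratio was -0.24. The highest with HBS was Fn1 (fibronectin), at 1344 and 964 FPKM.

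Of the 14 myeloid markers, all tested, 8 were above 0 and 6 below, with a median log2 ratio of 0.05. Past the fold were 4 as higher and 1 as lower. The higher ones were Cd14 (36.6 and 252 FPKM), Adgre1 (7.44 and 42.5 FPKM), Aif1 (2.93 and 12.9 FPKM) and Fcer1g (18.8 and 41.1 FPKM). Mrc1 was lower (3.76 and 1.27 FPKM), and Lyz2, the highest with HBS, was at 212 and 193 FPKM. Cd68 (36.2 and 26.3 FPKM) and Csf1r (8.39 and 6.20 FPKM) were lower without passing the fold. Of the 11 mural markers tested 3 were past the fold as higher and 2 as lower. Of these 11, 4 were above 0 and 7 below, with a median log2 ratio of -0.20. The higher ones past the fold were Rgs5 (1.69 and 7.23 FPKM), Kcnj8 (7.98 and 20.4 FPKM) and Ndufa4l2 (3.83 and 17.3 FPKM). The lower ones past the fold were the contractile genes Acta2 (27.6 and 8.02 FPKM) and Tagln (17.3 and 7.34 FPKM). Pericyte markers did not all go 1 way. Cspg4, for the pericyte marker NG2, was lower without passing the fold (20.4 and 12.2 FPKM), as was Anpep (26.7 and 13.7 FPKM). Pdgfrb was at 38.4 and 33.7 FPKM. Of the epithelial markers Krt18 alone was tested, and it was lower (9.61 and 2.05 FPKM). The part of cell makeup in the levels of Igfbp5 and Igf1 was not tested.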

How the data were processed

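RNA of MCECs was sequenced in 1 HG+HBS library and 1 HG+PC-NVs library, from poly(A) RNA with a stranded kit and paired-end reads. After trimming, the authors used TopHat for alignment (mm10 per the processing notes), BEDTools for counting, Cufflinks for FPKM, and edgeR in R for a normalization named as quantile. Tool versions and the annotation are not given in the sources used here. The authors deposited log2(normalized FPKM + 1) per transcript row, with no counts and no transcript names. The log2 scale was read from the values.

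Here the values were converted to FPKM, rows of a symbol were summed, and log2(FPKM + 1) was compared between the libraries, with no test, since there is 1 library per condition. The values were used without further normalization in the main setting, as the authors report a normalization. Quantile normalization, tried as an alternative, still changed them (log2 ratio of Igfbp5 0.89 before and 0.68 after). The 2 deposited libraries thus did not share 1 distribution of values. Other alternatives were median centring, upper-quartile scaling, a pseudocount of 0.1, the highest row of a symbol, other filters on low values and folds of 1.5 and 4.

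The worth of 1 fragment was taken as the most frequent low value of FPKM times length over 2189 genes with a single transcript longer than 1500 nt. This gave 0.0750 (HG+HBS) and 0.0859 (HG+PC-NVs), and a further peak lay at 1.99 and 2.02 times it. Fragments of a gene rest on its shortest RefSeq-linked GENCODE M21 transcript, and 3 fragments were taken as the floor. Intervals and floors cover counting error only.

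The members and lists were chosen with earlier results of these data known. The text names every member, every gene of the lists past the 2-fold difference and the highest genes of most lists, and a few further genes with a role beside a member, chosen after their values were seen. The files use older symbols for the CCN genes, and Rack1 was not found in the lists' symbols. Promoters are from RefSeq (GRCm38.p6), where all 10 members matched, with 14 windows. Gene coordinates are from GENCODE M21 (GRCm38). The calculations were tested on simulated data. Software was Python 3.11.15 with scipy 1.17.1, pandas 2.3.3, matplotlib 3.10.9 and numpy 2.4.6. Cultures in normal glucose were not analysed here.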

Additional observations from a re-analysis of the deposited data

How the results depend on the processing

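The number of family members past the fold was 0 in the reported setting, 1 with a pseudocount of 0.1 (Igf1), 2 at a fold of 1.5 (Igf1 and Igfbp5), and 0 under the other 7 alternatives. All genes past the fold numbered 375 (3.18% of those tested), against 534 (4.53%) with a pseudocount of 0.1. They numbered 209 (2.76%) with a mean log2(FPKM + 1) of at least 3, 1049 (8.9%) at a fold of 1.5 and 82 (0.696%) at a fold of 4. The fold of the summed binding protein level was 1.15, against 1.02 with quantile normalization and 1.12 with upper-quartile scaling. The number of pathway genes past the fold was 8, between 6 and 9 under the alternatives that keep the 2-fold difference, 20 at a fold of 1.5 and 1 at a fold of 4.

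Of 50 alternative log2 ratios of the members, 45 stayed within counting error and 5 did not, and 49 kept their sign. Those outside counting error with quantile normalization were Igfbp5, Igfbp3 (-0.34, against -0.12 as reported), Igfbp4 (-0.21, against -0.11) and Igf2r (-0.41, against -0.33). With upper-quartile scaling Igfbp5 (0.86) was outside it. The exception in sign was Igf2 with its highest row alone (0.16). The log2 ratio of Igfbp5 lay between 0.68, with quantile normalization, and 0.90, and that of Igf1 between -1.19 and -0.57. Of 63 alternative list medians, 62 moved by at most 0.1. The family median moved to -0.21 with quantile normalization.

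No paired analysis was possible because each condition has a single library, and leaving out a replicate was not run for the same reason. Depth limits Igf2 and Igfbp2, which rest on about 10 fragments or fewer in each library by their shortest transcripts.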

Other observations

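Igf2, Igf2r and Grb10 are imprinted, that is, expressed from the chromosome of 1 parent, and growth is a common theme of such genes. Of 20 genes listed as imprinted, 15 were tested, and 12 of the 15 were below 0, against 6078 of all 11785 genes tested. The median log2 ratio was -0.30, against -0.01 over all genes tested. Past the fold were Dcn, for the matrix proteoglycan decorin, as higher (623 FPKM with HBS and 1283 FPKM with PC-NVs), and Dlk1, for a Notch-like growth regulator, as lower (22.1 and 10.4 FPKM). These counts stand against 2.38% of all genes tested as higher and 0.798% as lower. Dcn is also among the fibroblast markers above. H19, the RNA that shares an imprinting control region with Igf2 and lies 72623 bases from it, was at 1.33 FPKM with HBS and 0.684 FPKM with PC-NVs. Gnas was at 885 and 871 FPKM, and Ndn at 61.6 and 49.7 FPKM. The members of the list share their libraries, and no test was made over them. Whether the listed genes were expressed from the chromosome of 1 parent in these cells was not measured.

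Growth hormone acts on many tissues by way of IGF-I. Its receptor gene Ghr was at 40.3 FPKM with HBS and 35.5 FPKM with PC-NVs, Socs2, a feedback inhibitor, at 25.1 and 17.8 FPKM, and Jak2 at 16.6 and 16.5 FPKM. Of the 6 genes of this axis tested, 0 were past the fold, against 3.18% of all genes tested. Of the genes of proteins that bind IGF2 mRNA, Igf2bp2 was at 14.2 and 18.7 FPKM, Igf2bp3 at 1.53 and 2.15 FPKM, and Igf2bp1 at 0.0752 and 0.0967 FPKM, the last 2 being mainly fetal genes. Of the 13 genes of the mannose 6-phosphate pathway, which Igf2r serves, 0 were past the fold, against the same 3.18%. Their median log2 ratio was -0.04. The highest were Vps29 (77.2 and 80.9 FPKM), Vps35 (70.8 and 70.6 FPKM), both of the retromer that returns receptors from endosomes, and M6pr.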
